A study of Mus musculus with 6 samples.

Results

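The 10 genes described here encode the enzymes that break down extracellular nucleotides and the receptors that sense them: the enzymes Entpd1, Nt5e and Ada, the P2Y receptors P2ry2, P2ry6, P2ry12, P2ry13 and P2ry14, and the P2X receptors P2rx4 and P2rx7. They were picked by name from the 22377 genes of the count table, and all 10 were among the 13884 genes that passed the filter on low counts. Under TMM scaling, 7 of the 7 receptors and Entpd1 had lower estimates in the libraries labelled Npm1+/- than in Npm1+/+ libraries. Nt5e and Ada had higher ones. P2ry2, P2ry14, P2rx4 and Entpd1 turned to positive estimates when the libraries were scaled to equal summed RNA of 10 macrophage markers, most of it Lyz2. The groups did not overlap under TMM scaling for P2ry2, P2ry6, P2ry13, P2rx4, P2rx7 and Entpd1, which lay lower, and for Nt5e, which lay higher. Of all genes tested, 12.6% lay lower and 13.3% higher without overlap. Relative to library totals, without TMM scaling, the groups of P2rx7 met. P2ry6 and P2ry13 had the lowest estimates of the 10, an order that a change of scaling can hardly alter. None of the 10 passed the test across all genes in edgeR.

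Tumor-associated macrophages (TAMs) were compared between 3 Npm1+/+ libraries, labelled wt, and 3 libraries labelled ko and knockdown, which are called labelled Npm1+/- here. By the study's methods, Lewis lung carcinoma (LLC) cells were implanted under the skin of young mice of both sexes. Tumors of Npm1+/+ and Npm1+/- mice were then sorted for cells positive for CD45, CD11b and F4/80, the surface proteins of mouse macrophages. Npm1 encodes nucleophosmin, a nucleolar chaperone, and Npm1+/- mice carry 1 intact copy of the gene in all cells of the host, whereas the implanted LLC cells came from a cell line. The libraries of both groups thus come from LLC tumors with no further treatment, and neither the labels nor the methods give the strain of these mice or the sex behind a library. The labels describe the material differently, as tumor tissue extracted with TRIzol for a small RNA library, and this difference was not resolved.

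Total counts ranged from 36550775 to 38147320 per library, and a count of 0 in a library would allow up to 3 counts, or 0.0716 to 0.0846 CPM, for counting error only. Levels are in CPM, counts relative to a library size made comparable by the TMM method, unless they are called FPKM, which relate the same counts to gene length and library total and are the scale used between genes. Npm1 mRNA was 142, 380.2 and 381 CPM in Npm1+/+ replicates 1, 2 and 3 and 441, 499 and 343 CPM in labelled Npm1+/- replicates 1, 2 and 3, so it was not lower in the libraries labelled Npm1+/-, with a log2 fold change of 0.51 (SE 0.36, Benjamini-Hochberg adjusted p = 0.436 by the quasi-likelihood test of edgeR). Npm1+/+ replicate 1 stood apart from the other libraries on the first principal component, which held 68.0% of the variance, at -108 against -4.54 to 52.0. The defining markers of macrophages were present in every library, at a summed level of 8565 to 20341 CPM over 10 genes. Members' values with and without Npm1+/+ replicate 1 are given below.

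Cells release ATP, ADP, UTP and UDP when they are stressed or die, and tumors are rich in them. P2X receptors are cation channels opened by ATP, and P2Y receptors are G protein-coupled receptors with different preferences among ATP, UTP, ADP, UDP and UDP-sugars. On the cell surface, CD39 (encoded by Entpd1) removes phosphates from ATP and ADP to give AMP, CD73 (encoded by Nt5e) turns AMP into adenosine, and adenosine deaminase (encoded by Ada) turns adenosine into inosine. Macrophages are known for carrying both the receptors and CD39, and adenosine is known to restrain T cells.

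Several members lie next to each other in the genome (GRCm38, GENCODE annotation). P2ry6 (NCBI Gene 233571) at chr7:100937630-100974649 and P2ry2 (NCBI Gene 18442) at chr7:100996568-101012866 are both on the minus strand, 21918 bp apart with no annotated gene wholly between them. Gm44545, a gene of the plus strand, overlaps P2ry6. P2ry14 (NCBI Gene 140795) at chr3:59113855-59153618, P2ry13 (NCBI Gene 74191) at chr3:59207892-59210882 and P2ry12 (NCBI Gene 70839) at chr3:59216272-59262871 are on the minus strand within Med12l, a gene of the plus strand. P2ry13 and P2ry12 are 5389 bp apart, a gap that Med12l spans and that holds no gene wholly inside it. Whether the counting used strand is not given in the sources used here, so reads from unspliced Med12l transcripts cannot be told apart from reads of these 3 receptors, although only 9 of the 2546 exonic bases of P2ry12, and none of the other 2 genes, overlap a Med12l exon. P2rx7 (NCBI Gene 18439) at chr5:122643911-122691432 and P2rx4 (NCBI Gene 18438) at chr5:122707544-122729738 follow each other on the plus strand at a distance of 16111 bp with Gm10064, a gene that is not protein coding, between them, and 119 of the 5970 exonic bases of P2rx7 (2.0%) are shared with Mir8115. The enzymes are dispersed, with Entpd1 (NCBI Gene 12495) at chr19:40612366-40741602 and Nt5e (NCBI Gene 23959) at chr9:88327197-88372092 on the plus strand, and Ada (NCBI Gene 11486) at chr2:163726584-163750239 on the minus strand.

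The promoters of the 9 members with a sequence were searched for 2 sites. These were the core site of PU.1, the lineage factor of macrophages, and the site of STAT factors, of which STAT3 was examined with NPM1 in the study. A window of 5 of the members is shown, and those of Nt5e, P2rx7, P2ry12 and P2ry14 are not. The sequences come from RefSeq on GRCm38.p6 and are the 250 bases before a transcription start, 5′ to 3′ on the strand of the gene. Capitals mark a match to GAGGAA (PU.1 core) or TTCNNNGAA (STAT) on either strand. The windows are P2ry13 at chr3:59210883-59211132 (minus strand), P2ry2 at chr7:101012054-101012303 (minus strand), P2rx4 at chr5:122707294-122707543 (plus strand), Entpd1 at chr19:40659520-40659769 (plus strand, the second of its 2 listed starts) and Ada at chr2:163750240-163750489 (minus strand).
P2ry13: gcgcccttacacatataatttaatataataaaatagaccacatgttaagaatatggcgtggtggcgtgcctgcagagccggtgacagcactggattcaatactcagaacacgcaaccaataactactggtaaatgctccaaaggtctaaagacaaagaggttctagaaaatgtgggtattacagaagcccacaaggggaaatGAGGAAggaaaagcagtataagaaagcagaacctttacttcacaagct
P2ry2: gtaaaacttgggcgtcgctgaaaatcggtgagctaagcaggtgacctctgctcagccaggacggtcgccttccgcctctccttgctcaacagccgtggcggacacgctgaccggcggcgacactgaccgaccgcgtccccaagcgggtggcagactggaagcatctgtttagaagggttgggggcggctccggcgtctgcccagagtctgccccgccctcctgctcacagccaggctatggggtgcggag
P2rx4: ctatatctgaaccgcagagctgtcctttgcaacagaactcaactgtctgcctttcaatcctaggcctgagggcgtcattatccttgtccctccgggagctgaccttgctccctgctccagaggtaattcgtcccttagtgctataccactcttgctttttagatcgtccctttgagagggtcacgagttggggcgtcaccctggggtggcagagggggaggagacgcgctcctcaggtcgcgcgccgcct
Entpd1: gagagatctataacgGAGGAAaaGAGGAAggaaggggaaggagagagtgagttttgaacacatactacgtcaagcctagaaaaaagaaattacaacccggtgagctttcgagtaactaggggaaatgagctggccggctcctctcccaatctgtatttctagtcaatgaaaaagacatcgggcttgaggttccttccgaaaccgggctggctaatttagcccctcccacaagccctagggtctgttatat
Ada: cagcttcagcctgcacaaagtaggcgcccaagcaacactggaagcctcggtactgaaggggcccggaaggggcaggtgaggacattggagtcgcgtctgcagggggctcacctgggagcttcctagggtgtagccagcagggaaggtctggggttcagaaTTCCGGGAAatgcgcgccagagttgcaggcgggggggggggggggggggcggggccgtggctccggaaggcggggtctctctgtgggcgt

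The first base of the PU.1 core match lies 48 bases before the start in P2ry13, and those of the 2 matches in Entpd1 lie 235 and 227 bases before its second listed start. The window of the first listed start of Entpd1, chr19:40612116-40612365, held neither set of letters. The PU.1 core was in a window of 3 of the 9 members with a sequence, P2ry13, Entpd1 and P2ry14, and in 23.3% of the 32851 windows of all genes. The STAT site was in a window of 1 of the 9, that of Ada, 90 bases before the start, and in 7.0% of the windows of all genes. Members with several listed starts have several windows, 15 in all for the 9, which makes a match in a gene more likely than in a single window. The windows of P2ry2 and P2rx4 printed above held neither set of letters. P2ry6 had no window in the table.

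None of the 10 members passed a Benjamini-Hochberg adjusted p of 0.05 over the 13884 genes in the quasi-likelihood test of edgeR, and neither did any other gene (0%). At an unadjusted p under 0.05, 6 of the 10 members were lower in the labelled Npm1+/- libraries, beside 8.31% of all genes tested, and 1 was higher, beside 6.9% of all genes. Every labelled Npm1+/- library lay below every Npm1+/+ library for 6 members, beside 12.6% of all genes, and above for 1 member, beside 13.3% of all genes. The median log2 fold change of the 10 members was -0.52 (0.065 when scaled to macrophage markers), against 0.02 over all genes tested, of which 6656 were lower and 7228 higher. By role, the medians under TMM scaling were -0.58 for the 5 P2Y receptors, -0.56 for the 2 P2X receptors and 0.39 for the 3 enzymes. The median of the enzymes is the value of Ada, between -0.43 for Entpd1 and 0.53 for Nt5e. These medians are descriptions of genes chosen with earlier results of these data known.

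DESeq2 gave P2ry6 an adjusted p of 0.0439 on the 6 libraries, the 1 member called there, beside 36 of 13699 genes (0.263%). A further DESeq2 fit, chosen after the data had been seen, left out Npm1+/+ replicate 1 and labelled Npm1+/- replicate 3. On the first principal component, labelled Npm1+/- replicate 3 stood nearest of its group to the Npm1+/+ libraries, at 11.7 against 41.4 and 52.0 in replicates 1 and 2. DESeq2 then called 4 of the 10 members lower, which were P2ry6, P2ry13, Entpd1 and P2ry2, beside 6.23% of the 12057 genes tested. It called 0 members higher in that fit, beside 4.42% of genes, and edgeR called 0 members in the same 4 libraries, with a smallest adjusted p of 0.101. At an unadjusted p under 0.05, edgeR had 6 members lower in these 4 libraries, beside 10.4% of all genes, and 0 higher, beside 12.8%. The calls therefore depended on the test as well as on the libraries.

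**Figure D1:**
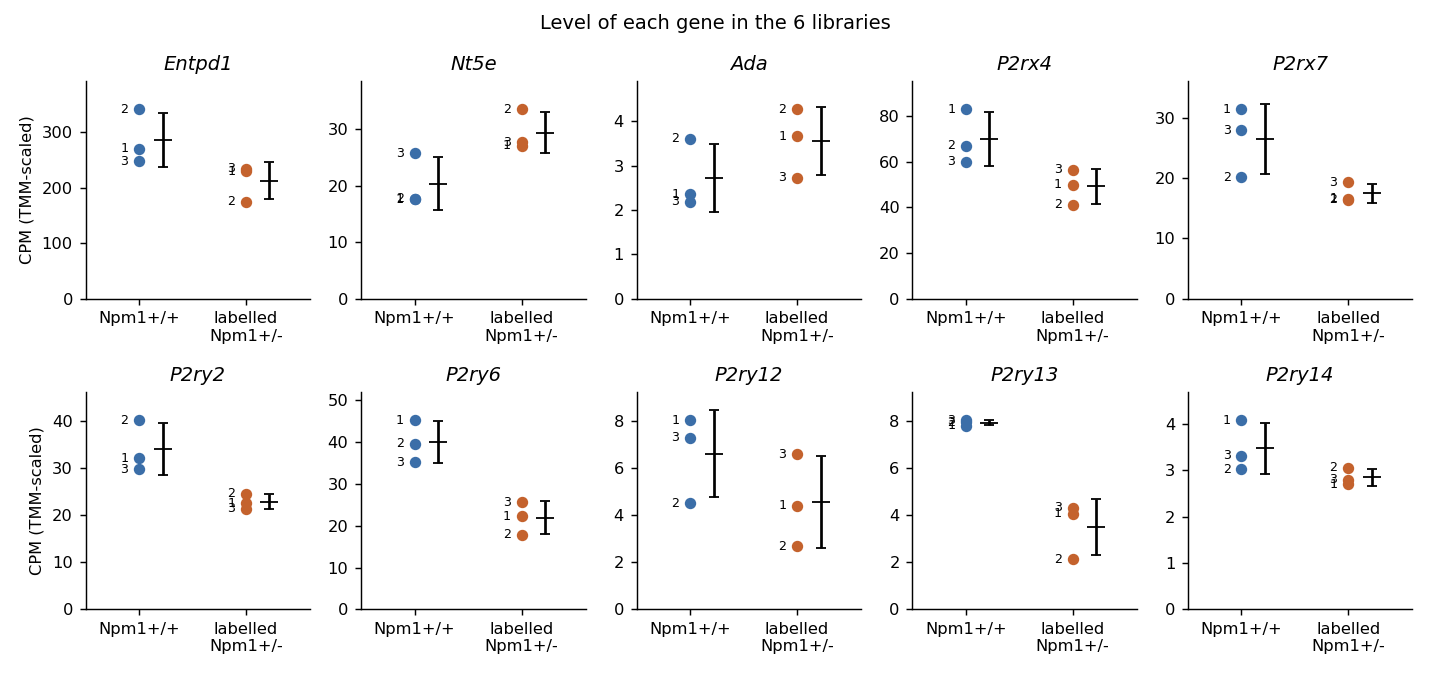
Level of each of the 10 genes in CPM after TMM scaling (vertical axis, from 0) in the 3 Npm1+/+ and the 3 labelled Npm1+/- libraries, each point a library with its replicate number, and the bar the mean ± SD (n = 3). The groups do not overlap for Entpd1, P2ry2, P2ry6, P2ry13, P2rx4 and P2rx7, which are lower, and Nt5e, which is higher, whereas Ada, P2ry12 and P2ry14 overlap, and Entpd1, P2ry2 and P2rx4 turn to positive estimates when scaled to macrophage markers. Of all genes tested, 12.6% are lower and 13.3% higher without overlap.

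Among the enzymes, Entpd1 was the most abundant per gene length, and its estimate had the opposite sign to those of Nt5e and Ada. Entpd1, which encodes the ecto-ATPase CD39, was 271, 341 and 248 CPM in Npm1+/+ replicates 1, 2 and 3 and 229.7, 175 and 234 CPM in labelled Npm1+/- replicates 1, 2 and 3. All of the labelled Npm1+/- libraries were lower, with the nearest values of the groups, 248 and 234 CPM, close to each other. Its means were 287 ± 48.7 and 213 ± 32.8 CPM (SD, n = 3), a fitted fold of 0.743, with a log2 fold change of -0.43 (SE 0.17, unadjusted p = 0.0406 and Benjamini-Hochberg adjusted p = 0.328 by the quasi-likelihood test of edgeR). In bulk RNA, fewer cells of a type and less RNA per cell cannot be told apart, which applies to every gene below.

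Nt5e, which encodes the AMP-cleaving enzyme CD73, was 17.6, 17.6 and 25.7 CPM in Npm1+/+ libraries and 27.1, 33.5 and 27.7 CPM in labelled Npm1+/- libraries. Npm1+/+ replicate 3 stood between the other 2 of its group and the labelled Npm1+/- libraries, and labelled Npm1+/- replicate 2 was the highest. The means were 20.3 ± 4.66 and 29.4 ± 3.55 CPM (SD, n = 3), a fitted fold of 1.45, with a log2 fold change of 0.53 (SE 0.19, unadjusted p = 0.0271 and adjusted p = 0.328 from the same edgeR test). Nt5e was the 1 member higher without overlap, beside 13.3% of all genes.

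Ada, which encodes the enzyme that clears adenosine, was 2.36, 3.61 and 2.19 CPM in Npm1+/+ libraries and 3.66, 4.27 and 2.74 CPM in labelled Npm1+/- libraries, from 82 to 179 counts. Npm1+/+ replicate 2 lay among the labelled Npm1+/- values, so the groups overlapped. The log2 fold change was 0.39 (SE 0.32, adjusted p = 0.489 from the edgeR test), and it was 0.64 without Npm1+/+ replicate 2, 0.24 without Npm1+/+ replicate 3 and 0.22 without labelled Npm1+/- replicate 2.

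Among the P2Y receptors, P2ry6, the receptor for UDP, had the smallest p of the 10 members. It was 45.2, 39.6 and 35.1 CPM in Npm1+/+ libraries and 22.2, 17.8 and 25.6 CPM in labelled Npm1+/- libraries. The lowest Npm1+/+ value was well above the highest labelled Npm1+/- value, and the gap between the groups was about as wide as the spread within each. The means were 40.0 ± 5.05 and 21.9 ± 3.91 CPM (SD, n = 3), a fitted fold of 0.548, with a log2 fold change of -0.87 (SE 0.18, unadjusted p = 0.00142 and adjusted p = 0.328 by the quasi-likelihood test of edgeR). P2ry6 ranked 18 by p among the 13884 genes tested.

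P2ry13, a receptor for ADP, had the largest fold change of the members in size. It was 7.82, 7.95 and 8.05 CPM in Npm1+/+ libraries and 4.07, 2.12 and 4.32 CPM in labelled Npm1+/- libraries, from 278 to 301 and from 89 to 160 counts. The Npm1+/+ libraries were nearly level, with a coefficient of variation of 1.45%, while that of the labelled Npm1+/- libraries was 34.3%, with replicate 2 far below the other 2. The means were 7.94 ± 0.115 and 3.51 ± 1.20 CPM (SD, n = 3), a fitted fold of 0.442, with a log2 fold change of -1.18 (SE 0.30, unadjusted p = 0.00526 and adjusted p = 0.328 from the edgeR test). Without labelled Npm1+/- replicate 2 the log2 fold change was -0.93 (SE 0.24).

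P2ry2, the receptor for ATP and UTP, was 32.1, 40.2 and 29.8 CPM in Npm1+/+ libraries and 22.5, 24.6 and 21.4 CPM in labelled Npm1+/- libraries. The labelled Npm1+/- libraries were close together, and all were below the lowest Npm1+/+ library. The means were 34.0 ± 5.45 and 22.8 ± 1.59 CPM (SD, n = 3), a fitted fold of 0.671, with a log2 fold change of -0.58 (SE 0.16, unadjusted p = 0.00695 and adjusted p = 0.328 from the edgeR test). Unlike P2ry6, its neighbour on chromosome 7, P2ry2 was not lowest in labelled Npm1+/- replicate 2 but highest there within its group.

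P2ry12, the other ADP receptor of the chromosome 3 cluster and the target of antiplatelet drugs, was 8.04, 4.51 and 7.30 CPM in Npm1+/+ libraries and 4.40, 2.67 and 6.59 CPM in labelled Npm1+/- libraries. The groups overlapped, since Npm1+/+ replicate 2 was below labelled Npm1+/- replicate 3. Its log2 fold change was -0.54 (SE 0.38, adjusted p = 0.434 from the edgeR test), and it was -0.27 without labelled Npm1+/- replicate 2 and -0.91 without labelled Npm1+/- replicate 3. P2ry14, the receptor for UDP-sugars, was 4.08, 3.02 and 3.31 CPM in Npm1+/+ libraries and 2.70, 3.06 and 2.79 CPM in labelled Npm1+/- libraries. It also overlapped, with a log2 fold change of -0.28 (SE 0.26, adjusted p = 0.524 from the edgeR test).

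Both P2X receptors were lower without overlap. P2rx4, an ATP-gated channel found largely on lysosomal membranes of macrophages, was 82.9, 67.1 and 59.9 CPM in Npm1+/+ libraries and 50.0, 41.1 and 56.4 CPM in labelled Npm1+/- libraries. Npm1+/+ replicate 3 and labelled Npm1+/- replicate 3 were close to each other. The log2 fold change was -0.51 (SE 0.17, unadjusted p = 0.0194 and adjusted p = 0.328 from the edgeR test), from means of 70.0 ± 11.8 and 49.2 ± 7.67 CPM (SD, n = 3).

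P2rx7, the ATP-gated channel upstream of the NLRP3 inflammasome, was 31.4, 20.2 and 27.9 CPM in Npm1+/+ libraries and 16.6, 16.4 and 19.3 CPM in labelled Npm1+/- libraries. Npm1+/+ replicate 2 lay near the highest labelled Npm1+/- value. The means were 26.5 ± 5.75 and 17.4 ± 1.59 CPM (SD, n = 3), with a log2 fold change of -0.60 (SE 0.19, unadjusted p = 0.0153 and adjusted p = 0.328 from the edgeR test). On the FPKM scale, which has no TMM scaling, the groups of P2rx7 met, at 2.92 to 4.54 and 2.70 to 2.92 FPKM.

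The libraries at the ends of the range recurred across genes. Labelled Npm1+/- replicate 2 was the lowest library for 5 of the 7 receptors and for Entpd1, and the highest for Nt5e and Ada. Npm1+/+ replicate 1 was the highest library for 5 of the 7 receptors. Without Npm1+/+ replicate 1, the library that stood apart, the log2 fold changes were -0.77 for P2ry6, -1.19 for P2ry13, -0.62 for P2ry2, -0.47 for P2rx7, -0.37 for P2rx4, -0.47 for Entpd1, 0.44 for Nt5e, 0.29 for Ada, -0.38 for P2ry12 and -0.16 for P2ry14. In that fit, 6 members were lower at an unadjusted p under 0.05, beside 5.38% of the genes tested, and 0 were higher, beside 6.81%, with Nt5e at an unadjusted p of 0.0534 (adjusted p = 0.411 by the quasi-likelihood test of edgeR). Without labelled Npm1+/- replicate 2, 4 members were lower, beside 2.94% of genes, and 0 higher, beside 1.81%. Without labelled Npm1+/- replicate 1, 3 members were lower, beside 2.74% of genes, and 1 was higher, beside 2.75%. Without Npm1+/+ replicate 2, 5 members were lower, beside 9.02% of genes, and 0 higher, beside 9.79%. The counts of members and the shares of all genes thus both varied with the library left out.

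Per gene length, the members spanned a wide range, and their order was similar but not the same in both groups. In the Npm1+/+ libraries the mean FPKM was 54.7 for Entpd1, 24.3 for P2rx4, 15.1 for P2ry6, 10.5 for P2ry2, 5.42 for Nt5e, 3.90 for P2rx7, 2.98 for P2ry13, 2.35 for P2ry12, 1.28 for P2ry14 and 0.573 for Ada. Of the neighbours in that order, only P2rx7 and P2ry13 had ranges that overlapped. In the labelled Npm1+/- libraries the order began with Entpd1 (44.9 FPKM), P2rx4 (18.9 FPKM) and P2ry6 (9.09 FPKM), followed by Nt5e (8.71 FPKM), P2ry2 (7.89 FPKM), P2rx7 (2.84 FPKM), P2ry12 (1.75 FPKM), P2ry13 (1.44 FPKM), P2ry14 (1.17 FPKM) and Ada (0.845 FPKM). There, the ranges of P2ry6 and Nt5e, of Nt5e and P2ry2, and of P2ry12, P2ry13, P2ry14 and Ada with the next in the order overlapped.

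Among all pairs of the 10 members, there were 2 whose order was opposite in the groups in every library. Nt5e was below P2ry2 in 3 of 3 Npm1+/+ libraries and above it in 3 of 3 labelled Npm1+/- libraries on the FPKM scale. In labelled Npm1+/- replicate 1 the values of Nt5e and P2ry2 nearly coincided, at 7.94 and 7.72 FPKM. Likewise, P2ry12 was below P2ry13 in 3 of 3 Npm1+/+ libraries and above it in 3 of 3 labelled Npm1+/- libraries, although the values nearly coincided in 1 library of each group.

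**Figure D2:**
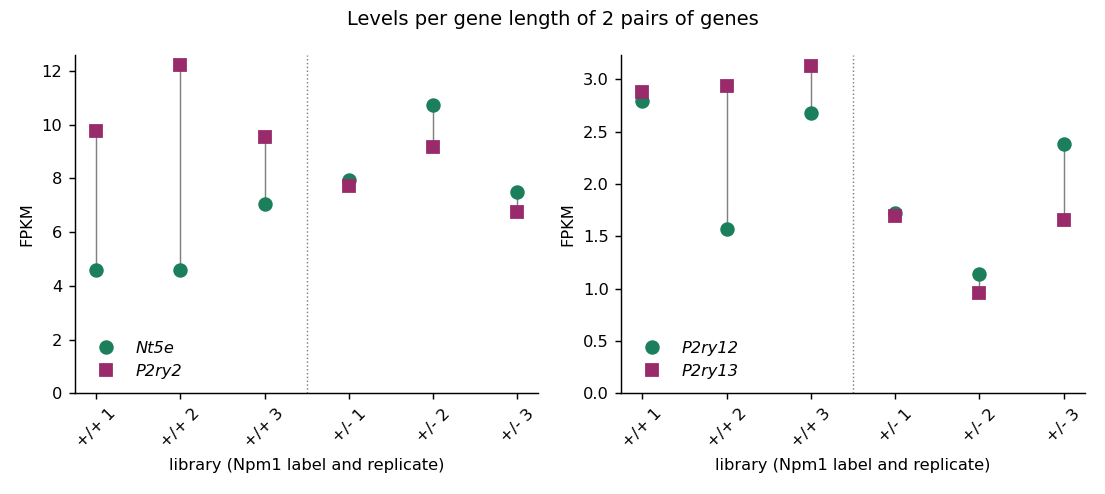
FPKM (vertical axis, from 0) of Nt5e and P2ry2 (left) and of P2ry12 and P2ry13 (right) in each of the 6 libraries, Npm1+/+ to the left and labelled Npm1+/- to the right of the dotted line, with a grey line joining the pair within a library. Nt5e lies below P2ry2 in 3 of 3 Npm1+/+ libraries and above it in 3 of 3 labelled Npm1+/- libraries, and P2ry12 does the same against P2ry13.

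Ratios within a library do not depend on scaling, and 12 were computed, chosen after the values had been seen. The smallest p that 3 libraries against 3 allow is 0.1. The ratio of Nt5e to Entpd1, the second enzyme of the path to adenosine over the first, was 0.0903, 0.0717 and 0.144 in Npm1+/+ libraries and 0.163, 0.265 and 0.164 in the labelled Npm1+/- libraries, in FPKM over FPKM. All labelled Npm1+/- libraries were higher, by 0.98 on the log2 scale between group means of the logarithms (exact permutation test, two-sided p = 0.1, 0.3 after Benjamini-Hochberg adjustment over the 12 ratios).

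The ratio of P2ry13 to P2ry12 was 1.03, 1.87 and 1.17 in Npm1+/+ libraries and 0.981, 0.843 and 0.695 in the labelled Npm1+/- libraries, without overlap (exact permutation test, two-sided p = 0.1, adjusted p = 0.3). Against Cd68, a lysosomal glycoprotein of macrophages, P2ry6 was 0.0335, 0.0299 and 0.0326 in Npm1+/+ libraries and 0.0267, 0.0253 and 0.0246 in the labelled Npm1+/- libraries, also without overlap. P2ry13 relative to Cd68 did not overlap either, with a log2 difference of -0.70. Relative to Csf1r, the receptor of macrophage colony-stimulating factor, both P2ry6 and P2ry13 overlapped between the groups (exact permutation test, two-sided p = 0.4 and 0.2). The ratio of P2rx4 to Cd68, that of P2rx4 to Csf1r and that of P2ry13 to Csf3r, the neutrophil receptor of granulocyte colony-stimulating factor, overlapped too (exact permutation test, two-sided p = 0.7, 0.2 and 0.2). The ratios of P2rx4 to P2rx7, P2ry6 to P2ry2 and Ada to Nt5e overlapped as well, with p from 0.5 to 0.8 in the exact permutation test.

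No marker of any cell type passed the adjusted threshold in the quasi-likelihood test of edgeR, and DESeq2 on the 6 libraries called 0 of them. In DESeq2 without Npm1+/+ replicate 1 and labelled Npm1+/- replicate 3, a fit chosen after the data had been seen, 9 of 10 macrophage markers were called lower. So were 2 of 6 neutrophil markers and 1 platelet marker, beside 6.23% of all genes tested. Called higher there were 4 of 8 fibroblast markers, 1 NK cell marker and 1 epithelial or carcinoma marker, beside 4.42% of genes. At an unadjusted p under 0.05 in edgeR, 6 of 10 macrophage, 3 of 6 neutrophil and 1 of 8 fibroblast markers were lower, beside 8.31% of all genes tested. Higher were 3 of 6 T cell and 2 of 8 fibroblast markers, beside 6.9% of all genes. The summed macrophage markers were 20341, 16047 and 14560.5 CPM in Npm1+/+ libraries and 11226, 8565 and 14645 CPM in labelled Npm1+/- libraries, overlapping in labelled Npm1+/- replicate 3, with 10 of 10 genes having lower estimates and a median log2 fold change of -0.55. This median was close to those of the receptors, and labelled Npm1+/- replicate 2 and Npm1+/+ replicate 1 were again the lowest and the highest library. Lyz2, named after its values were seen, made up most of the macrophage sum in every library. It was 14144, 10371 and 9354 CPM in Npm1+/+ libraries and 7499, 5667 and 9698 CPM in labelled Npm1+/- libraries. The neutrophil markers, 6 of 6 with lower estimates, summed to 1694 to 1894 CPM in the Npm1+/+ and 730.4 to 1478 CPM in labelled Npm1+/- libraries, without overlap.

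Most markers of T cells, NK cells and fibroblasts had higher estimates, but their sums overlapped between the groups. The T cell markers, 6 of 6 with higher estimates, summed to 13.9 to 74.4 CPM in the Npm1+/+ and 59.3 to 159.6 CPM in labelled Npm1+/- libraries, highest in labelled Npm1+/- replicate 2, which also had the highest Nt5e and Ada. Those of NK cells, 5 of 5 with higher estimates, summed to 24.9 to 46.1 and 38.2 to 114.5 CPM. The fibroblast markers, 7 of 8 with higher estimates, summed to 35.5 to 489 and 352 to 695 CPM, with the 35.5 CPM in Npm1+/+ replicate 1. The part of these markers in the members' values was not tested.

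The sums of the remaining lists overlapped between the groups as well. Epithelial and carcinoma markers summed to 35.2 to 137 and 129 to 191 CPM, with Krt19 and Cldn4 at 0 or 1 count in every library. Krt8, a keratin named after its values were seen, made up most of this sum in 5 of the 6 libraries, at 9.90, 117 and 59.1 CPM in Npm1+/+ and 171, 165 and 105 CPM in labelled Npm1+/- replicates 1, 2 and 3. Its log2 fold change was 1.25 (SE 0.71, adjusted p = 0.368 by the edgeR test). DESeq2 without Npm1+/+ replicate 1 and labelled Npm1+/- replicate 3, the fit chosen after the data had been seen, gave an adjusted p of 0.0122. Endothelial markers summed to 32.7 to 39.8 and 29.7 to 33.5 CPM, B cell markers to 6.26 to 36.1 and 11.8 to 58.0 CPM, and dendritic cell markers to 214 to 366 and 238 to 339 CPM. Platelet markers, included since platelets are known for P2ry12, summed to 339 to 433 and 289.7 to 463 CPM, with Gp9 and Gp1ba at 4 counts or fewer in every library. Nearly all of that sum came from the chemokine genes Ppbp, at 143 to 246 CPM, and Pf4, at 146 to 216 CPM, both named after their values were seen and overlapping between the groups.

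**Figure D3:**
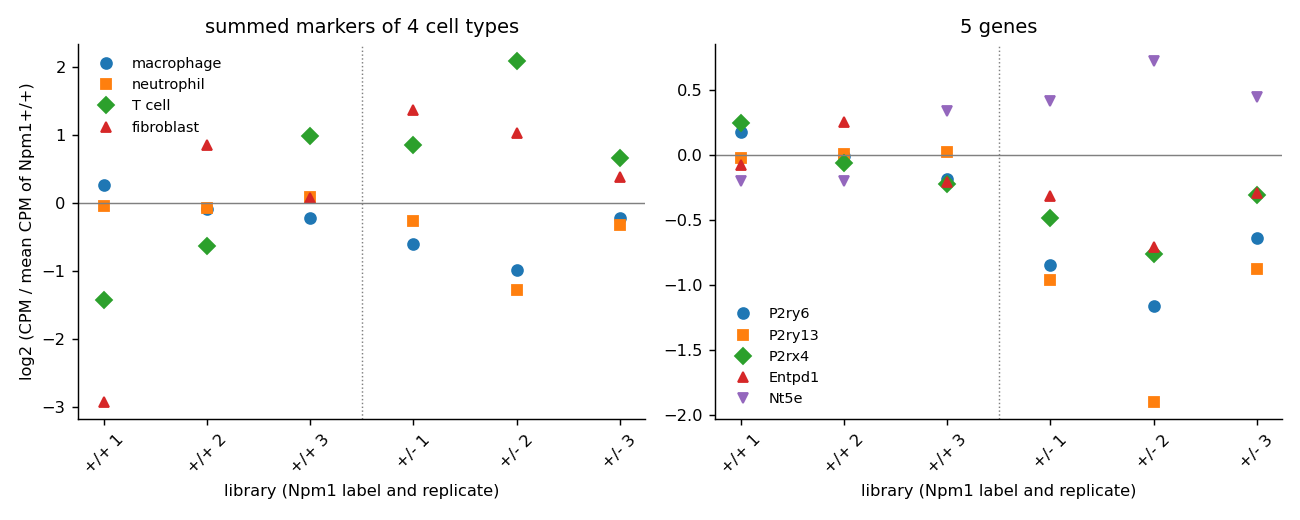
log2 of CPM relative to the Npm1+/+ mean (vertical axes, different ranges) in each of the 6 libraries, Npm1+/+ left of the dotted line and labelled Npm1+/- right of it, for the summed markers of 4 cell types (left) and for 5 of the genes (right). Macrophage and neutrophil markers, P2ry6, P2ry13, P2rx4 and Entpd1 are lowest in labelled Npm1+/- replicate 2, where T cell markers and Nt5e are highest.

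Scaling the libraries to equal summed macrophage markers, mostly Lyz2, instead of by TMM, moved the median of all genes to 0.63 on the log2 scale. The median of the 10 members became 0.065, with 4 members lower and 6 higher against 8 and 2 under TMM. A change of scaling moves the estimates of all genes by nearly the same amount, so it can hardly alter their order. P2ry13 was -0.66 (SE 0.38) and P2ry6 -0.29 (SE 0.24), the lowest of the members, P2ry12 was -0.03 (SE 0.39), and the estimate of P2rx7 differed from 0 by less than 0.01 (SE 0.29). Entpd1 at 0.14 (SE 0.22), P2rx4 at 0.083 (SE 0.21), P2ry2 at 0.047 (SE 0.32) and P2ry14 at 0.35 (SE 0.42) turned to positive values within about 1 SE of 0. Nt5e at 1.14 (SE 0.37) and Ada at 1.04 (SE 0.50) lay higher than under TMM. The estimates of P2ry6 and P2ry13 remained below 0, but neither passed the test relative to macrophage markers (adjusted p = 0.349 and 0.217 by the quasi-likelihood test of edgeR).

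**Figure D4:**
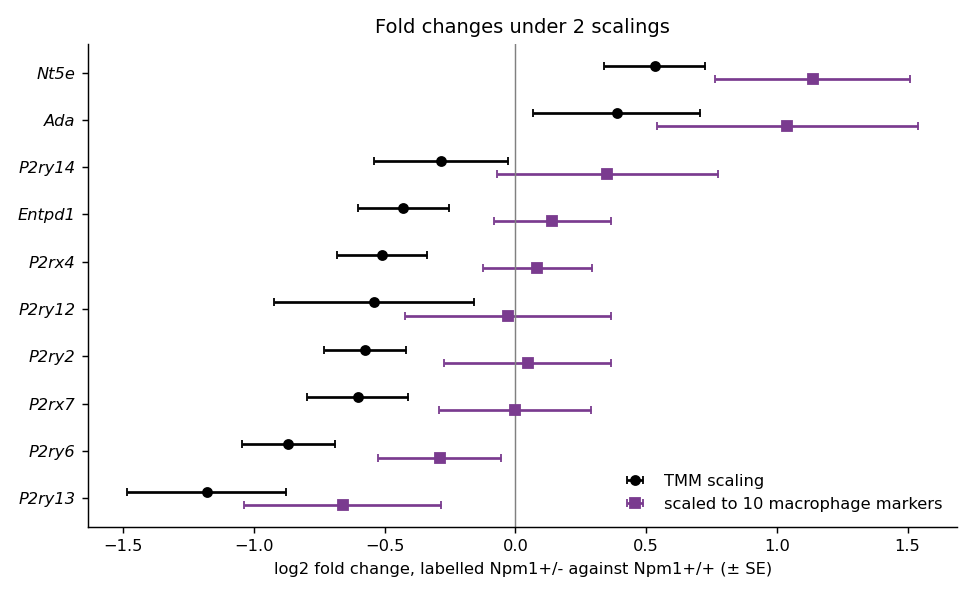
log2 fold change of labelled Npm1+/- against Npm1+/+ libraries (horizontal axis) with its SE (bars) for each of the 10 genes, under TMM scaling (black circles) and under scaling to 10 macrophage markers (purple squares), over all 6 libraries. The 8 negative estimates under TMM move toward 0, where those of Entpd1, P2ry2, P2ry14 and P2rx4 turn positive and those of P2ry6 and P2ry13 stay at -0.29 and -0.66, and Nt5e and Ada move up. The sum of the 10 macrophage markers is mostly Lyz2.

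The other genes of the pathway had a median nearer to that of all genes. Of 42 further enzymes, receptors and transporters listed, 41 were in the table and 32 were tested, with 19 lower and 13 higher and a median log2 fold change of -0.09. No gene of these passed the adjusted threshold in edgeR's quasi-likelihood test. At an unadjusted p under 0.05, 5 were lower, beside 8.31% of all genes tested, and 1 was higher, beside 6.9%. On the 6 libraries DESeq2 called 0, beside 0.263% of genes. DESeq2 without Npm1+/+ replicate 1 and labelled Npm1+/- replicate 3, the fit chosen after the data had been seen, called 3 of the 27 it tested. These were Slc29a3, Adora2b and Bst1, all lower, beside 6.23% of all genes called lower. Bst1, an ectoenzyme that cleaves NAD, is named after its values were seen.

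Of the further enzymes, 18 were tested, with 9 lower and 9 higher. Pnp, the purine nucleoside phosphorylase that acts on the product of adenosine deaminase, was the most abundant, at a mean of 50.7 FPKM over the 6 libraries. It was 209.7, 176 and 144 CPM in Npm1+/+ libraries and 128, 108 and 138 CPM in labelled Npm1+/- libraries, lower without overlap (log2 fold change -0.50, SE 0.17, adjusted p = 0.328 from the edgeR test). Its close paralog Pnp2, the 1 gene higher at an unadjusted p under 0.05, had 30 to 77 counts, and reads may be split between the 2. Nme1, a nucleoside diphosphate kinase at 50.5 FPKM, had a log2 fold change of -0.02 (SE 0.12).

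The adenosine receptors, which sense the end product of CD39 and CD73, were abundant but overlapped between the groups. Adora2b had a mean of 74.2 FPKM over the 6 libraries, above any of the 10 members, and Adora2a 38.1 FPKM. Their log2 fold changes were -0.41 (SE 0.27) and -0.17 (SE 0.16). Adora3, the adenosine receptor with the smallest p, had 17 to 74 counts and a log2 fold change of -0.98 (SE 0.59, adjusted p = 0.387 from the edgeR test), with its highest value in Npm1+/+ replicate 1.

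Of the other P2 receptors, 3 of 7 passed the filter. The ADP receptor P2ry1 was 8.04, 4.14 and 6.60 CPM in Npm1+/+ libraries and 4.55, 4.44 and 4.65 CPM in labelled Npm1+/- libraries, overlapping at a log2 fold change of -0.46 (SE 0.28, adjusted p = 0.393 from the edgeR test). The ATP-gated channel P2rx1 had a log2 fold change of -0.60 (SE 0.53) from 21 to 84 counts.

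Among the genes of nucleotide release and nucleoside transport, Slc29a3, a nucleoside transporter of lysosomes, had the smallest p of the whole pathway. It was 89.5, 81.9 and 67.4 CPM in Npm1+/+ libraries and 48.5, 51.7 and 47.4 CPM in labelled Npm1+/- libraries, with no overlap. Its log2 fold change was -0.69 (SE 0.14, unadjusted p = 0.00109 and adjusted p = 0.328 by the quasi-likelihood test of edgeR), rank 11 of all genes tested. Gja1, which encodes connexin 43, was 12.6, 79.4 and 47.0 CPM in Npm1+/+ libraries and 97.3, 89.2 and 68.1 CPM in labelled Npm1+/- libraries, overlapping and lowest in Npm1+/+ replicate 1, as the fibroblast markers were.

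**Figure D5:**
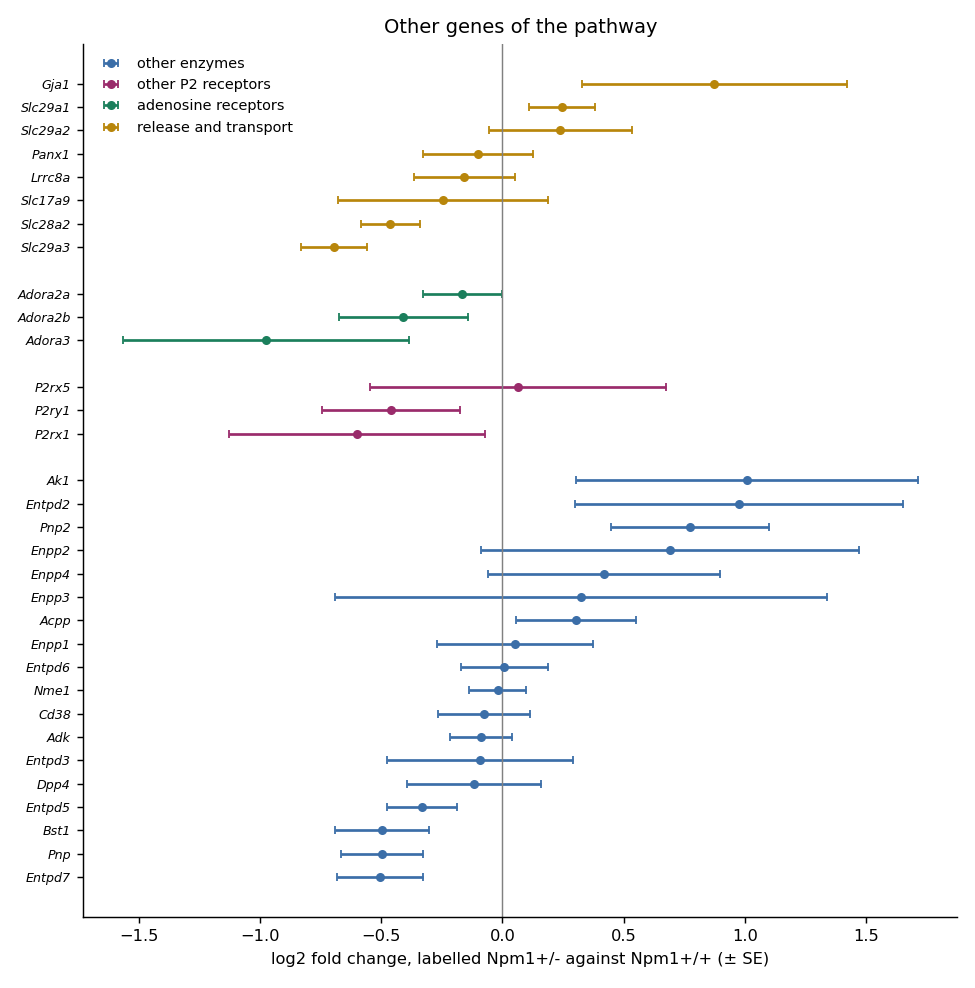
log2 fold change of labelled Npm1+/- against Npm1+/+ libraries (horizontal axis) with its SE (bars) for the 32 other pathway genes tested, coloured by role, under TMM scaling over the 6 libraries. The further enzymes are split into 9 lower and 9 higher, the 3 adenosine receptors have negative estimates, and Slc29a3 at -0.69 has the smallest p of these genes.

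The genes with the pattern most like that of P2ry6, by the root mean square difference of log2 CPM centred on each gene's mean over the 6 libraries, were Lrp1 at 0.0723, Lgals3bp at 0.0758 and Xylt1 at 0.0763. Lrp1, a scavenger receptor, was 2121, 1757 and 1640 CPM in Npm1+/+ libraries and 1025, 906 and 1306 CPM in labelled Npm1+/- libraries, with a log2 fold change of -0.77. The log2 fold changes of Lgals3bp and Xylt1 were -0.79 and -0.89.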

How the data were processed

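For each of the 6 libraries the authors deposited raw read counts of every gene, and FPKM. The gene length implied by a gene's count, the library's sum and the deposited FPKM was the same across libraries (largest relative deviation 8.88e-16 over the genes tested). That length was not checked against an annotation. The submitters' processing notes name the genome build mm10. The aligner, the counting tool and the annotation are not given in the sources used here. Both files list genes by symbol, and 0 columns were left unmapped. The labels call each library a separate biosample. The study's legend to an RNA sequencing heatmap names individual mice, but fewer per group than the 3 libraries here, and the study itself counts too few biological replicates among its limits. Whether each library is a separate mouse is therefore not settled, n counts libraries, and p-values measure only the spread between them.

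Counts were fitted with edgeR 4.0.16 in R 4.3.3 (filterByExpr, TMM factors, glmQLFit, glmQLFTest), with Benjamini-Hochberg adjustment over the 13884 genes tested and a threshold of 0.05. The standard error of a log2 fold change is its size over the root of the F statistic, and log2 CPM used a prior count of 2. Alternatives were DESeq2 1.42.0 on the counts and limma 3.58.1 on log2-transformed deposited FPKM, with 1 or 0.1 added before the transform. Other alternatives were the scaling, the filter, the replicate block and left-out libraries. Scripts were tested on simulated data. Coordinates are from GENCODE M21 on GRCm38, matched by symbol. Promoters are the 250 bases before each RefSeq start, and 9 of 10 members had one.

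The members, the lists and the tests were chosen with earlier results of these data known. Named were all 10 members, Npm1, the 2 genes of each pathway list with the highest mean FPKM and the 1 with the smallest p, and the 3 genes closest to the member with the smallest p. Pnp2, Bst1, Krt8, Ppbp, Pf4 and Lyz2 were named after their values were seen, and so were Cd68, Csf1r and Csf3r in the ratios. Of the marker lists, totals, counts and genes at or near 0 are given. Acp3 is listed under its older symbol Acpp, and Adora1 was not analysed here.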

Additional observations from a re-analysis of the deposited data

How the results depend on the processing

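With edgeR, 0 genes, 0 members and 0 other pathway genes passed the adjusted threshold under RLE or upper quartile factors, no filter, a filter of at least 10 counts in every library, and without each library in turn, and the median log2 fold change of the members ranged from -0.58 to -0.37 when libraries were left out. DESeq2 called 36 genes and 1 member, P2ry6, and 0 other pathway genes. DESeq2 without Npm1+/+ replicate 1 and labelled Npm1+/- replicate 3, chosen after seeing the data, called 1284 genes, 4 members and 3 other pathway genes. With limma on log2 FPKM plus 1 the median of the members was -0.31, and the median of all genes was 0.09. The pseudocount shrinks the change of low genes by construction, but the FPKM also lack TMM scaling. With 0.1 added instead of 1, the median of the members was -0.38, and the abundant Entpd1 was -0.28 against -0.27. The share of each in the difference was not tested. Under scaling to the macrophage list, the median of the members was 0.065, and Entpd1 (0.14), P2ry2 (0.047), P2ry14 (0.35) and P2rx4 (0.083) reversed, with 11 genes lower and 4135 higher at an unadjusted p under 0.05. The same scaling without Npm1+/+ replicate 1, chosen after seeing the data, called 13 genes, all higher, with a median of the members of -0.014 and P2ry14 (0.33) and P2rx4 (0.075) reversed. The cause of these differences was not tested. With the replicate number as a block, edgeR called 0 genes and 0 members, with a smallest adjusted p among members of 0.408. Nothing in the labels pairs the libraries. The correlations of same-numbered deviations were -0.24, 0.06 and -0.34, which cannot settle whether same-numbered libraries belong together, because the deviations within a group depend on each other. Ada, P2ry12, P2ry13 and P2ry14 rest on 82 to 301 counts per library, which limits their precision.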
